A study of Mus musculus with 6 samples.

Results

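The stretch of mouse chromosome 13 described here was taken by probe set ID, from 10406650 to 10407230, and holds 514 of the 65535 probe sets in the deposited table. Its label names *Cert1* to *Slc38a9*, but the IDs begin within *Dmgdh*, 10 genes before *Cert1* in ID order, and end within *Dhx29*, after *Slc38a9* and *Plpp1*. Of the 514 members, 479 carried 1 gene symbol, 8 carried several and 27 carried none, and the 479 belong to 51 genes. The deposited table as a whole carries 5017 genes by single symbol. Shares over all probe sets or genes, and the word measured, refer to this table alone. The segment was chosen by the knockout minus control differences of its probe sets, so every difference between the groups below is a description and none is a test.

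Total RNA of mouse brain was hybridised to whole-transcript arrays read at exon level, on 6 arrays. The 3 control arrays carry the genotype APPPS1-FVB and the 3 knockout arrays APPPS1-FVBxABCC1, for which the word knockout is taken from the titles. APPPS1 mice carry human APP and presenilin transgenes under a neuronal *Thy1* promoter and form amyloid plaques, a feature both groups share, and FVB is an inbred strain. *Abcc1* encodes a membrane exporter and was not analysed here, which leaves the labels unchecked by their target. Age, sex and batch are not in the labels, and it is not said whether each array stands for its own animal, so the SDs cover only the spread between these samples, which may be technical. In bulk brain RNA, fewer cells of a type and less RNA per cell cannot be told apart.

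Exon-level arrays place many probe sets along a gene, each a few short probes that report the part of the transcript they match. A change in transcript number should move the probe sets of a gene together where their signals follow it, which dim probe sets may not do. A single probe set can also move alone, when the exon it matches is used differently or when the target no longer matches the probes equally well in both groups. Signals of different probe sets depend on their probes, so a gap between a probe set and the rest of its gene can reflect the probes alone. Gaps are given below with their sign, but what is compared is how a gap differs between arrays.

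In the order of IDs, the 50 segment genes that the GRCm38.p6 RefSeq gene table places on chromosome 13 follow each other in rising order of their starts in 50 of 50 cases. The other gene, *Cnn3*, is placed on chromosome 3 and has 1 probe set here. Where the RefSeq promoter table gives a strand, 41 of 42 genes are on the plus strand; *Btf3* is the exception, with 1 probe set. Probe sets are given without coordinates, since the sources used here name no build for the array.

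Sequences of the probes were not used here. The promoters of *Cert1* and *Slc38a9* are shown because these genes hold the largest single differences of the segment and a higher knockout mean at every probe set, respectively. Each is the 250 bases before the transcript start in RefSeq on build GRCm38.p6, plus strand, at chr13:96542485-96542734 for *Cert1* and chr13:112660516-112660765 for *Slc38a9*. Capitals mark matches on either strand to the GC box GGGCGG, the CCAAT box CCAAT, the TATA box TATAAA or the E-box CACGTG.
Cert1: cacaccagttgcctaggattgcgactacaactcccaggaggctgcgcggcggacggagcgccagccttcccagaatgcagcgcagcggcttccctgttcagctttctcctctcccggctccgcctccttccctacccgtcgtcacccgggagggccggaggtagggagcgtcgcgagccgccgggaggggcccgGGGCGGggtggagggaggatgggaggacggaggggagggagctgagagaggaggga
Slc38a9: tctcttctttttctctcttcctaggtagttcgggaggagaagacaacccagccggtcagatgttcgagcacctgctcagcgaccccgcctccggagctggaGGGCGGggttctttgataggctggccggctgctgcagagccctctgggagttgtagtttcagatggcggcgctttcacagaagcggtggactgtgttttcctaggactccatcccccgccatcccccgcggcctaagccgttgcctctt
Both windows hold 1 GC box match and 0 matches to the other motifs, and neither motif overlaps another. Among 27025 promoters of the same length, 32.9% hold the GC box, 34.5% the CCAAT box, 13% the TATA box and 6.05% the E-box. The GC content is 70.0% in the *Cert1* window and 60.0% in the *Slc38a9* window, against a median of 52.0% over all promoters.

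Signals are in log2 units as deposited, where a difference of 1 is a 2-fold change. Array medians lay between 7.04 and 7.09 over the 58919 probe sets that are not control features of the array, and pairs of arrays correlated between 0.984 and 0.990 across those probe sets. Neuronal markers were bright: the 4 measured of 10, *Map2*, *Syt1*, *Dlg4* and *Vamp2*, lay between 9.84 and 11.61 in the controls as means over each gene's probe sets. Of 8 oligodendrocyte markers 1 was measured, *Cnp* at 10.29, and of 7 astrocyte markers 2, *Gfap* at 9.99 and *Gja1* at 10.36. The endothelial marker *Pecam1*, 1 of 7, was at 6.81. For choroid plexus 2 of 6 were measured, *Kcnj13* at 8.15 and *Ace* at 8.05. Of 8 microglial markers 3 were measured (*Ptprc*, *Cd68*, *Fcer1g*), and their summed signal on the linear scale ran from 402.2 to 419.4 in the controls and from 246.1 to 435.9 in the knockouts, with the lowest value on knockout 2. The astrocyte sum ran from 2037.9 to 2736.9 in the controls and from 1724.3 to 2096.3 in the knockouts, again lowest on knockout 2. Of its 2 genes, *Gfap* had an SD of 0.42 in each group, and *Gja1* of 0.05 in the controls and 0.06 in the knockouts. *Slc4a1*, the 1 measured red cell marker of 5, was lower on all knockout arrays, at 29.7 to 33.2 against 37.9 to 44.3 on the linear scale.

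Most of the segment differed little between the groups. The median knockout minus control difference over the 514 members was 0.020, beside 0.010 over all tested probe sets and 0.010 over the rest of chromosome 13. Differences under 0.5 in size made up 479 of the 514 members (93.2%, against 95.7% of all tested probe sets). Higher in the knockout were 277 members, lower 233, and 4 were at 0 to within 0.001. Array medians over the members were 7.45, 7.48 and 7.51 in the controls and 7.50, 7.57 and 7.47 in the knockouts, so the groups overlapped. After quantile normalization the segment median was -0.004, so the lean to the higher side was not kept under that scaling.

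Against this flat ground a few single probe sets stood far off. A large difference, meaning at least 1 in size with a raw limma p below 0.01, was reached by 7 members, all higher in the knockout. Across all tested probe sets 0.146% reached it, and 0.104% on the higher side; since this contrast chose the segment, nothing is read from the gap. The 7 lie in 4 genes: 2 in *Cert1*, 3 in *Slc38a9*, 1 in *Plpp1* and 1 in *Dhx29*. None of the 514 passed a limma adjusted p of 0.05 over all probe sets (0 of 514, against 0.00509% of all probe sets called). With trend and robust moderation 2 members passed, 10406776 of *Cert1* and 10407217 of *Plpp1*.

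**Figure D1:**
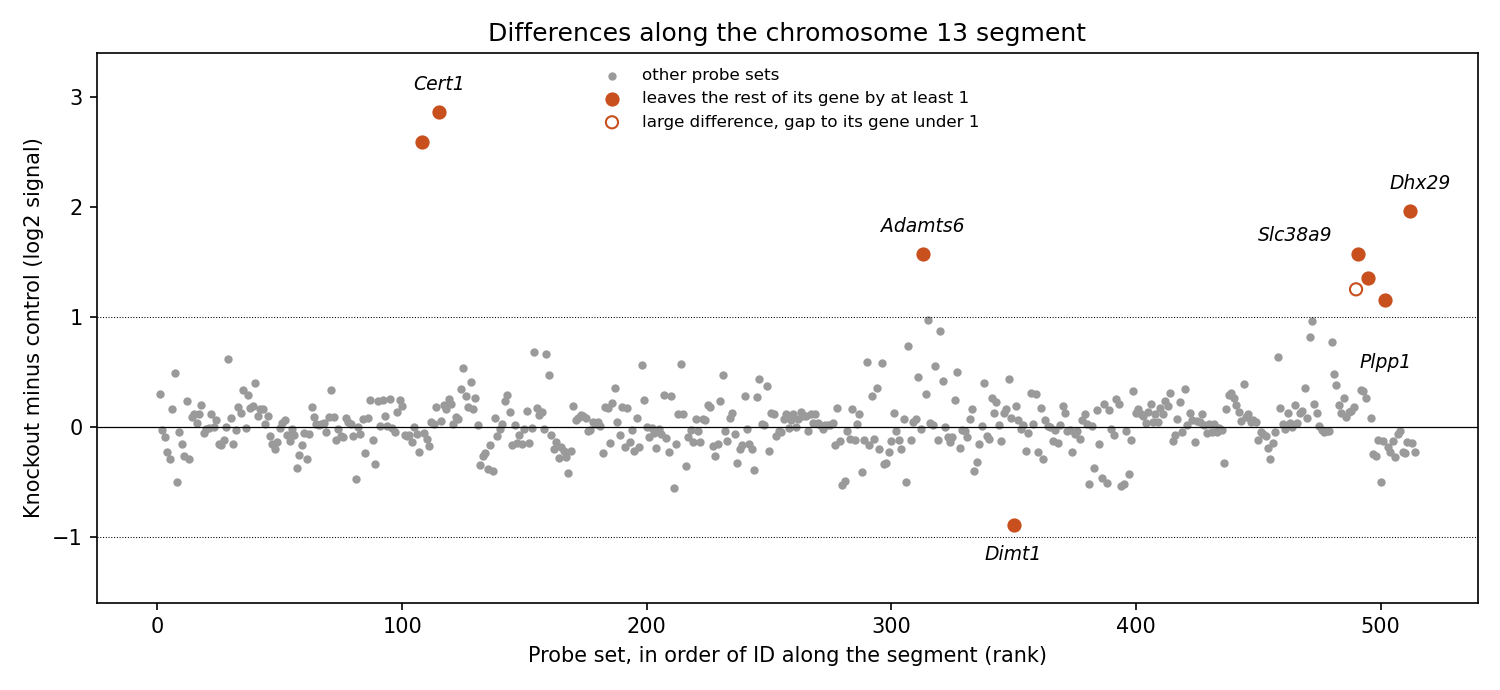
Knockout minus control difference in log2 signal (vertical axis, means of 3 arrays each) for the 514 probe sets in order of ID (horizontal axis, rank); filled orange points leave the rest of their gene by at least 1 and the open point is a large difference whose gap to its gene moved by 0.98. Grey points crowd around 0, with 479 of all 514 members under 0.5 in size, while the *Cert1* points stand at 2.59 and 2.87.

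To set aside shifts of a whole gene and of a whole array, each probe set was compared on each array with the median of the other probe sets of its gene. This was possible for 446 members in the 35 genes with at least 4 probe sets; the other 68 members have too few neighbours or no single symbol. In 8 of the 446, in 6 genes, the gap to the rest of the gene differed by at least 1 between the groups with no overlap of arrays, 7 of them upwards in the knockout. Across the array 0.231% of 51604 probe sets did so, and 0.141% upwards, and at least 1 such probe set was found in 2.52% of 3885 genes. In the controls all 8 lay below the rest of their gene on every array, with a median gap of -2.16, and in the knockouts the median gap was -0.71. The share of other probe sets below their gene was not counted. Since the 8 were picked by the shift of this gap, nothing is read from their place below the gene.

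*Cert1* encodes the ceramide transfer protein, which carries ceramide from the endoplasmic reticulum to the Golgi, where it becomes sphingomyelin. Its last probe set by ID, 10406776, read 6.48, 6.68 and 6.49 on the control arrays and 9.28, 9.82 and 9.15 on the knockout arrays. The lowest knockout array was thus well above the highest control array, and the group means of 6.55 ± 0.11 (SD, n = 3) and 9.42 ± 0.36 (SD, n = 3) differed by 2.87, or 7.29-fold. Against the other 18 probe sets of the gene it lay 2.60 ± 0.09 (SD, n = 3) below in the controls, while in the knockouts the gaps were 0.13, 0.83 and -0.10, around the level of the gene.

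The other *Cert1* probe set, 10406769, is the 12th of 19 by ID. It read 2.22, 2.23 and 2.34 in the controls, under the control features' median of 4.12 in these arrays. In the knockouts it read 3.79, 6.19 and 4.58, a mean difference of 2.59 with a spread of 1.22 (SD, n = 3) between the knockout arrays. Knockout 2 was the brightest and knockout 1 the dimmest, and all 3 were above every control. With controls under that median, the size of the difference is uncertain. This probe set stayed below its gene in both groups, by -6.89 in the controls and -4.32 in the knockouts.

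The remaining 17 probe sets of *Cert1* stayed near 0. Their differences ran from -0.23 to 0.24 with a median of -0.05, 3 of them non-overlapping and higher and 1 non-overlapping and lower. Where groups do not overlap by single probe sets, 7.94% of all tested ones were higher and 5.52% lower. Averaged over all 19, the gene read 8.58, 8.56 and 8.62 in the controls and 8.87, 8.88 and 8.83 in the knockouts, a difference of 0.27 that the median over probe sets (-0.05) does not share. The immediate ID neighbours of 10406769, numbers 11 and 13 of the gene, had differences of -0.23 and -0.05, and 10406775, next to 10406776, had 0.18.

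**Figure D2:**
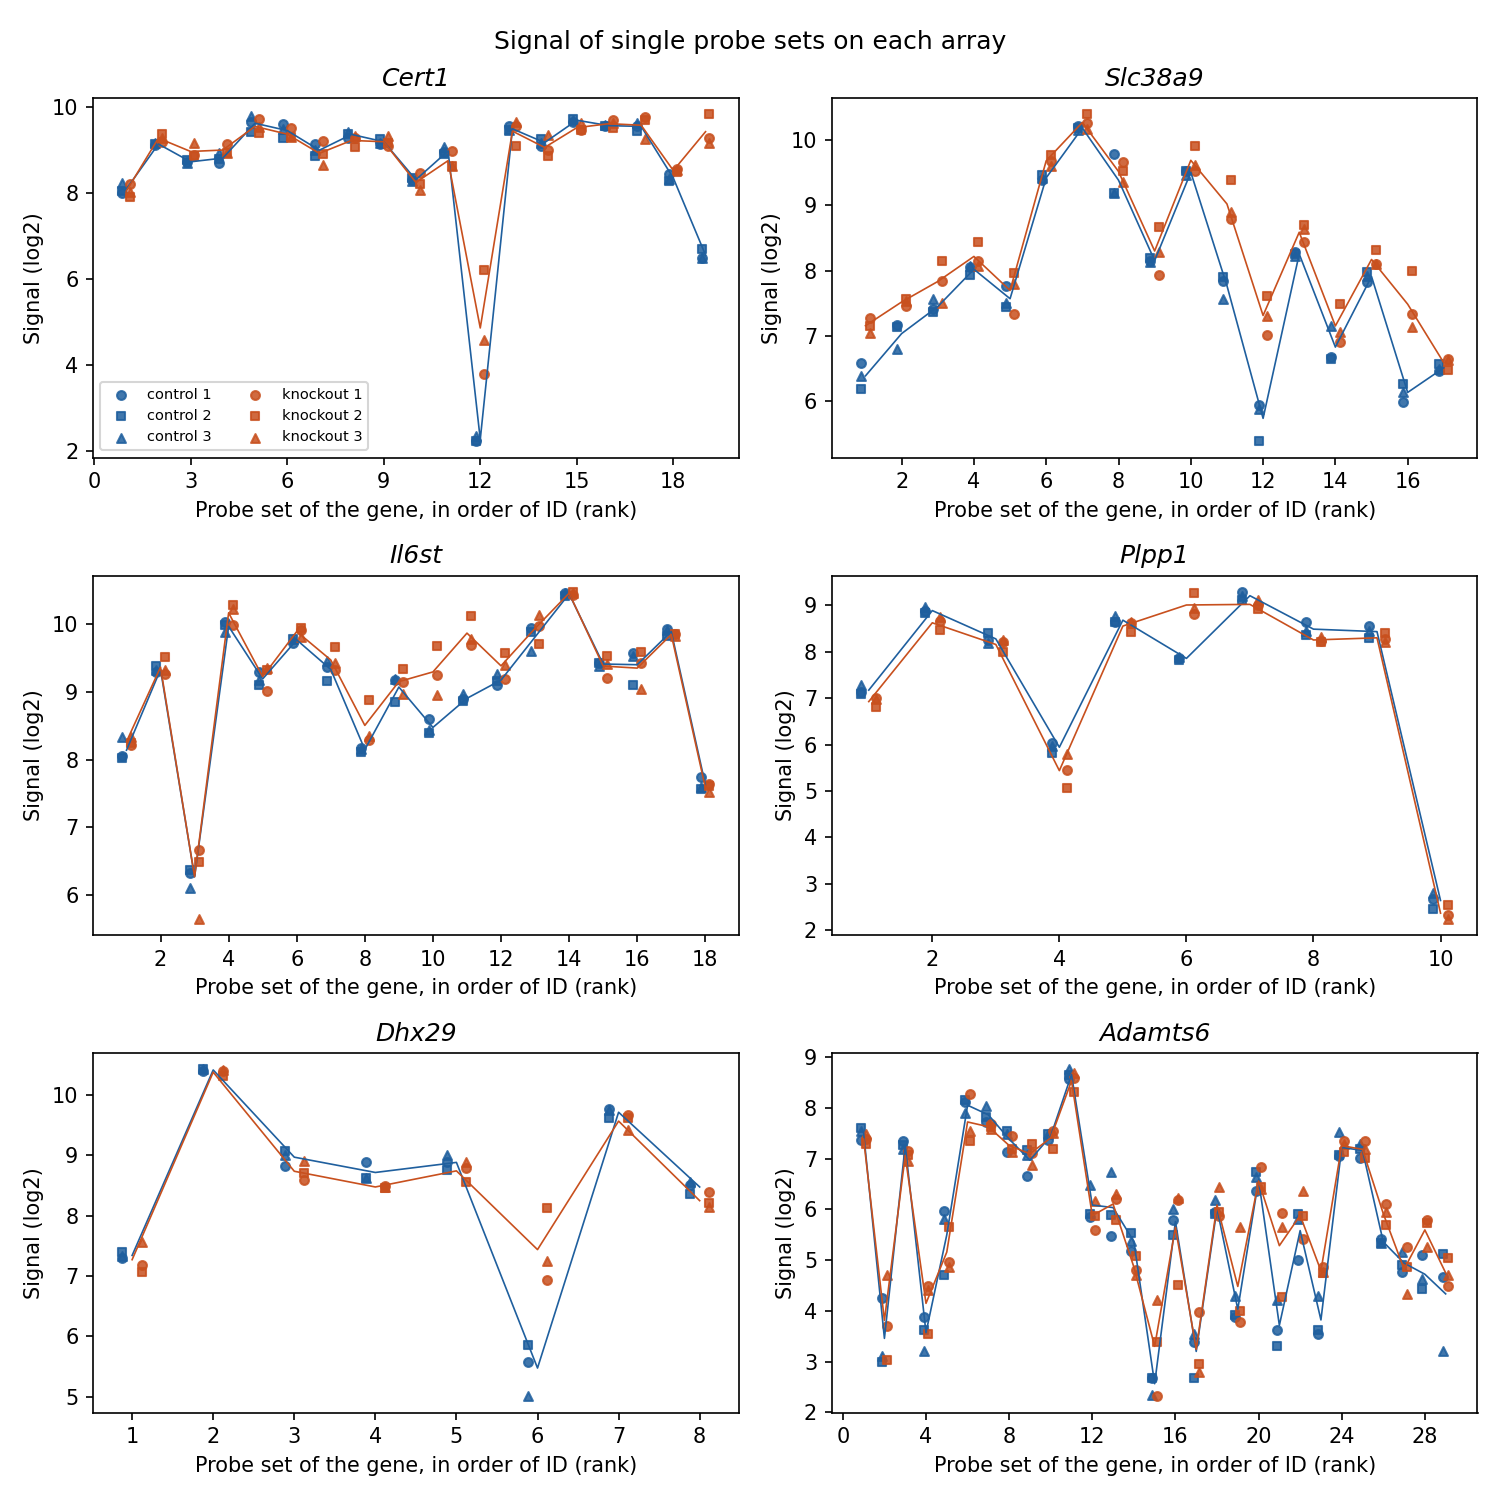
Log2 signal (vertical axis) of each probe set of 6 genes in order of ID (horizontal axis, rank in the gene); blue points are the 3 control arrays, orange points the 3 knockout arrays, and lines join group means. The *Dhx29* panel holds the 8 of its 28 probe sets inside the segment. In *Cert1* the groups run together except at positions 12 and 19, while in *Slc38a9* the orange line lies above the blue one at all 17 positions.

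*Slc38a9* encodes a lysosomal amino acid transporter that reports arginine in the lysosome to the mTOR kinase complex. Unlike *Cert1*, all of its 17 probe sets were higher in the knockout, from 0.08 to 1.57, as deposited and also after quantile normalization and after median centring. The gene means were 7.83, 7.74 and 7.77 in the controls and 8.14, 8.44 and 8.16 in the knockouts. The groups did not overlap and the means differed by 0.47. One of the 17 is given by the platform as 4833412L08Rik, a synonym of *Slc38a9* in RefSeq, and has the smallest difference.

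Within this shared direction, 3 of the 17 differed more. Probe set 10407204 read 5.94, 5.39 and 5.89 in the controls and 7.02, 7.61 and 7.31 in the knockouts, a difference of 1.57 or 2.98-fold. Its neighbour 10407203 read 7.84, 7.90 and 7.57 against 8.79, 9.38 and 8.89, a difference of 1.25. Further along, 10407208 read 5.99, 6.27 and 6.15 against 7.33, 7.99 and 7.14, a difference of 1.35. No knockout array overlapped a control array at any of the 3.

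Relative to the rest of *Slc38a9*, the gap of 10407204 moved by 1.25, that of 10407208 by 1.02 and that of 10407203 by 0.98, just short of the bound of 1. The 15 probe sets other than 10407204 and 10407208 had a median of 0.26. Among the next largest, 10407193, the first of the gene, differed by 0.77 and 10407194 by 0.48. The bound cuts through this gene: without control 1 or without knockout 2, 10407208 no longer met it, and it did not when the mean of the other probe sets replaced the median.

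*Il6st* encodes the receptor chain that interleukin 6, leukaemia inhibitory factor and related cytokines share for signalling. It lies just before *Slc38a9* in ID order. No probe set of it reached 1, but neighbours 10407183 and 10407184, numbers 10 and 11 of 18, came near. Probe set 10407184 read 8.89, 8.86 and 8.97 in the controls and 9.70, 10.13 and 9.78 in the knockouts, a difference of 0.96. At 10407183 the values were 8.60, 8.39 and 8.44 against 9.25, 9.68 and 8.96, a difference of 0.82. The groups did not overlap at either, and the gaps to the rest of the gene moved by 0.83 and 0.67. Over all 18 probe sets the median difference was 0.10, and the gene means of 9.06, 8.97 and 9.03 in the controls lay below the 9.14, 9.33 and 9.11 of the knockouts.

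*Plpp1*, the gene after *Slc38a9*, encodes a lipid phosphatase of the cell surface that removes phosphate from lysophosphatidate and related lipids. Its probe set 10407217, number 6 of 10, read 7.86, 7.83 and 7.88 in the controls and 8.81, 9.26 and 8.95 in the knockouts. The control arrays agreed to within 0.05 and all knockout arrays were higher, by 1.15 on average or 2.22-fold. The other 9 all went the opposite way, from -0.50 to -0.12 with a median of -0.23, as deposited and under both other scalings, and 4 of the 9 were lower without overlap. The gap of 10407217 to its gene was -0.69, -0.54 and -0.57 in the controls and 0.57, 1.05 and 0.69 in the knockouts, so it changed sign and moved by 1.37. The gene mean, at -0.09, gives neither pattern.

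*Dhx29* encodes an RNA helicase that helps the small ribosomal subunit scan structured leaders of messenger RNAs. The segment holds the first 8 of its 28 probe sets. Probe set 10407228 read 5.57, 5.85 and 5.01 in the controls and 6.93, 8.13 and 7.25 in the knockouts, with no overlap and a difference of 1.96 or 3.89-fold. In the segment the other 7 were lower in the knockout, from -0.24 to -0.04. Beyond the last ID of the segment lies a further such probe set of *Dhx29*, 10407240, at 5.72, 5.33 and 6.21 against 7.93, 8.36 and 7.18, a difference of 2.07. The 26 probe sets of the gene other than these had a median of -0.03 and ran from -0.35 to 0.33.

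The first member, 10406650 of *Dmgdh*, which encodes an enzyme of choline breakdown, had a difference of 0.30 and the probe set before it, 10406649, had -0.12. The last member, 10407230 of *Dhx29*, had -0.23.

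**Figure D3:**
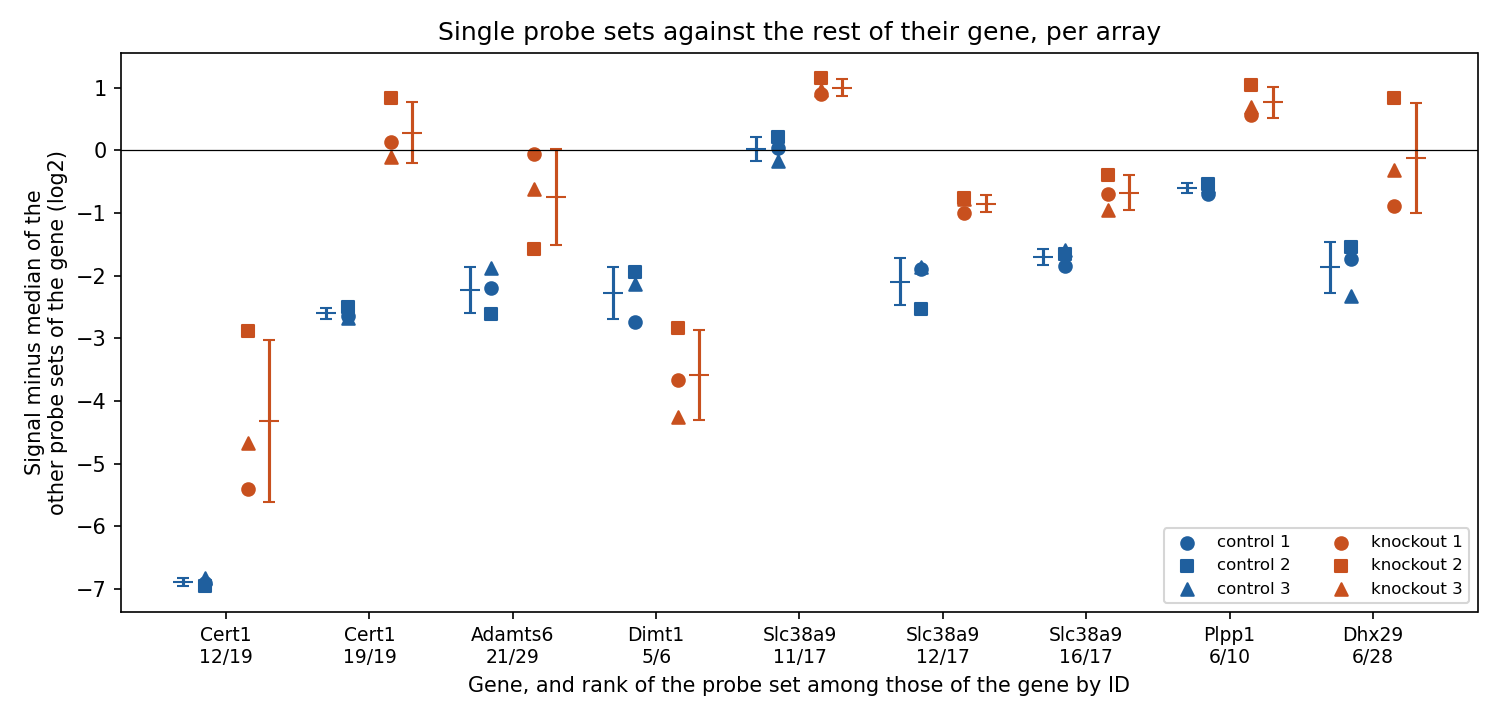
Signal of a probe set minus the median of the other probe sets of its gene on the same array (vertical axis, log2) for the 9 probe sets with a large difference or a gap that moved by at least 1; points are arrays, bars are group means ± SD over 3 arrays. All blue points of the 8 that left their gene lie below 0, and at *Cert1* 19/19 the control arrays sit between -2.67 and -2.50 while the knockout arrays sit between -0.10 and 0.83.

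Further members left their gene in genes that carried no large difference. *Adamts6* encodes a secreted metalloprotease of the extracellular matrix. At its probe set 10407003, number 21 of 29, the controls read 3.63, 3.30 and 4.22 and the knockouts 5.93, 4.27 and 5.66. Knockout 2, the brightest knockout array at the 7 large differences, was here the dimmest and lay 0.05 above the highest control. The mean difference was 1.57 with an SE of 0.47, and its raw p missed the bound of 0.01. The control mean of 3.72 lies under the control features' median of 4.12, so the size of the difference is uncertain.

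Of the 10 probe sets within 5 places of it by ID, 5 differed by under 0.1 in size, and the 10 ran from -0.12 to 0.97 at 10407005. Farther along, 10407010 was at 0.87. The lowest of the gene was 10406996 at -0.50. Over the 28 other than 10407003 the median was 0.03, with 3 higher and 3 lower without overlap. In the controls the mean signals of its probe sets ran from 2.57 to 8.66.

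*Dimt1*, a methyltransferase of ribosomal RNA, held the 1 member that left its gene downwards. Its probe set 10407047 read 5.30, 5.69 and 5.29 in the controls and 4.37, 5.62 and 3.61 in the knockouts, so the raw signals of the groups overlapped. Only the gap to the rest of the gene separated them, at -2.74, -1.94 and -2.13 against -3.66, -2.83 and -4.26. The gap moved by -1.31, and by -0.97 without knockout 3. Against the mean of the other probe sets it moved by -1.09, but the groups then overlapped.

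The brightest knockout array was the same at all large differences. Knockout 2 had the highest of the 3 knockout values at 7 of the 7 large members, while it was highest at 35.1% of all tested probe sets and 39.5% of all members. At the 54 large and higher probe sets outside the segment it was highest in 30. Along *Slc38a9* it was highest at 14 of 17 probe sets and along *Fam169a* at 10 of 12, whereas along *Cert1* without its 2 outlying probe sets it was highest at 1 of 17 and lowest at 9. Knockout 2 also had the lowest microglial and astrocytic sums given above; the part of cell makeup in these values was not tested. Without knockout 2, 9 members had a large difference, where the share over all probe sets was not counted. The median gap shift of the 8 then went from 1.42 to 1.25.

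Among the knockout arrays, 7 of the 8 members had a larger SD of the gap than the median of the other members, and among the control arrays 4 of 8 did. The 8 were picked by these gaps and were not matched to the others for signal, so their spread is a description only. The SD of the gap to the gene had a median of 0.60 in the knockouts and 0.25 in the controls over the 8. Over all tested probe sets these medians were 0.18 and 0.16, and over the other members 0.18 and 0.13. The wide knockout spread was greatest at 10406769 of *Cert1* (1.30) and smallest at 10407204 of *Slc38a9* (0.13).

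In the 45 genes without such a probe set, gene mean differences ran from -0.26 in *Tbca* to 0.25 in *Gcnt4*, which has 1 probe set. Of all 51 gene means, 29 were higher and 21 lower as deposited, and 25 and 23 after quantile normalization. The arrays of the groups did not overlap in 9 genes on the higher side and 2 on the lower, where 11.4% and 8.85% of all 5017 genes did so. After quantile normalization these were 7 and 3. Higher under every scaling were *Cert1*, through its 2 probe sets, *Fam169a*, *Enc1*, *Gm807*, *Htr1a*, *Il6st* and *Slc38a9*.

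Besides *Slc38a9*, most probe sets of *Fam169a* and *Mier3* lay on the higher side. *Mier3* was higher at 12 of 13 under each scaling, though its gene means overlapped under quantile normalization and median centring. In *Fam169a*, as deposited all 12 probe sets were higher, from 0.02 to 0.53, and 10 of 12 were after quantile normalization. *Fam169a* gene means were 8.68, 8.74 and 8.78 in the controls and 8.90, 9.04 and 8.90 in the knockouts, with no overlap. *Enc1*, an actin-binding protein of developing and adult neurons, read 10.01, 10.02 and 10.01 against 10.23, 10.21 and 10.25. That gap of 0.22 rests in good part on 10406819, which differed by 0.68, since the median over its 5 probe sets was 0.14. The serotonin receptor gene *Htr1a* read 6.95, 7.10 and 7.02 in the controls and 7.28, 7.20 and 7.20 in the knockouts over 3 probe sets.

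On the lower side, *Tbca*, a cofactor of tubulin folding, read 8.57, 8.49 and 8.66 in the controls and 8.22, 8.38 and 8.34 in the knockouts, with all 3 probe sets lower under each scaling. *Lhfpl2* was lower by 0.11 over 4 probe sets. *Ankra2* was lower at 9 of 12 probe sets, 5 of them without overlap, but its gene means overlapped.

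In several well-known genes of the stretch the gene means of the groups overlapped. *Smn1*, whose product assembles spliceosomal particles, differed by -0.01 with probe sets from -0.56 to 0.57. *Pde4d*, a phosphodiesterase of cyclic AMP, differed by 0.04 from -0.54 to 0.32 over 21 probe sets. Its median over probe sets was 0.12 as deposited, and 16 of the 21 were higher under each scaling. *Plk2*, a kinase induced by neuronal activity, differed by 0.04, from -0.14 to 0.35. *Dmgdh* differed by -0.06. The 35 members without a single symbol ran from -0.39 to 0.28 with a median of 0.00. Without overlap, 2 of the 35 were lower and 0 higher, beside 5.52% and 7.94% of all tested probe sets. The 2 were 10406926, dim at 3.77 ± 0.12 (SD, n = 3) in the controls, and 10406855, which carries several symbols.

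**Figure D4:**
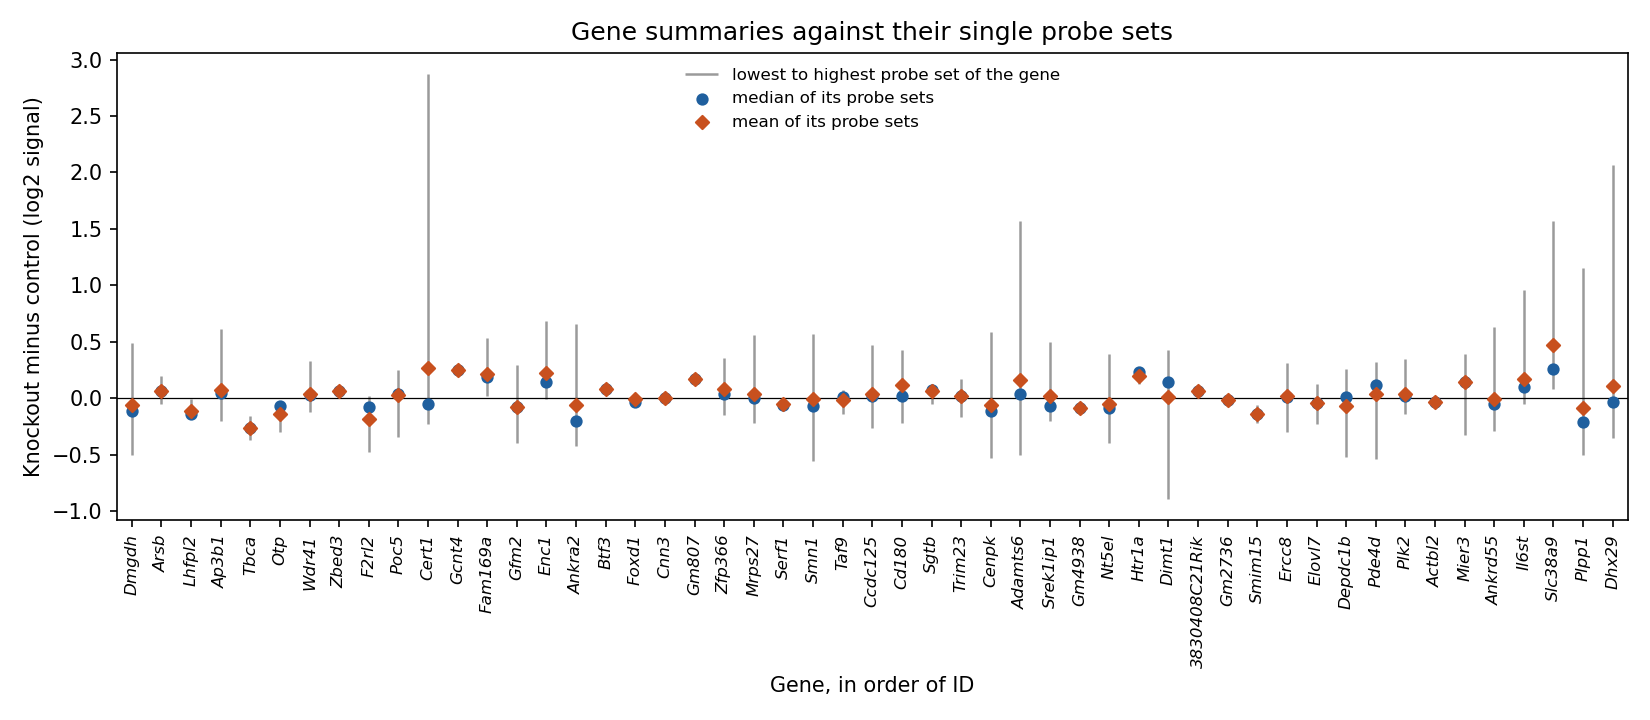
Knockout minus control difference in log2 signal (vertical axis) for the 51 genes in order of ID (horizontal axis); grey lines run from the lowest to the highest probe set of a gene, blue points are the median and orange diamonds the mean over its probe sets. Mean and median part in *Cert1* (0.27 and -0.05) and *Plpp1* (-0.09 and -0.21), while both are above 0 in *Slc38a9* (0.47 and 0.26).

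Genes that act with the segment's members were counted without the members themselves. Of 31 such genes listed for ceramide and sphingolipid metabolism 12 were measured, 4 higher and 8 lower, with a median of -0.05 beside 0.00 over all genes. Among them *Sptlc1* and *Sptlc2*, subunits of the first enzyme of sphingolipid synthesis, differed by -0.03 and 0.05, and *Kdsr*, the reductase of the next step, by -0.18. In the interleukin 6 family list 4 of 20 were measured, 1 higher, 1 lower and the others within 0.005 of 0, and *Stat3*, the transcription factor downstream of *Il6st*, was at 8.61 ± 0.02 (SD, n = 3) in the controls and 8.62 ± 0.07 (SD, n = 3) in the knockouts. *Socs3*, a feedback inhibitor that *Stat3* induces, differed by 0.05.

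Of the amino acid sensing list without *Slc38a9*, 3 of 16 were measured and all 3 were higher, with a median of 0.06: *Slc38a6* at 0.17, *Rptor*, a scaffold of the mTOR complex, at 0.06 and *Slc38a10* at 0.03. The 2 measured of 16 phosphatidate phosphatase genes other than *Plpp1* were lower, *Plpp2* at -0.15 and *Lpin1* at -0.05. Of 13 DEAH helicases other than *Dhx29* 5 were measured, 3 higher and 2 lower with a median of 0.01, and of 20 sterol genes 4 were measured, 1 higher and 3 lower with a median of -0.03. In these 6 lists 0 probe sets passed limma's adjusted p of 0.05.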

How the data were processed

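Brain total RNA was measured on 6 one-colour arrays. The authors deposited log2 signals per exon probe set with 2 decimals; MAS5 is named in the submitters' processing notes with no version, the log2 scale was read from the values (1.69 to 14.41), and the sources used here state neither the scaling between arrays nor a build. Signals were used as deposited, since array medians differ by 0.05. Control features of the array, taken as the 6616 whose IDs precede any symbol, were left out. Kinds of control feature were not told apart, so their median may not be the background. Symbols came from the platform annotation and were updated through RefSeq (45 segment symbols current, 7 updated, 0 kept as given).

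Knockout minus control was fitted over 58919 probe sets with limma 3.58.1 in R 4.3.3 (lmFit and eBayes), with Benjamini-Hochberg adjustment, to give the share called. A probe set's gap is its signal minus the median of its gene's other probe sets, for genes with at least 4. Both steps were tested on simulated data with independent noise. The gap step was simulated with a shift well above the bound of 1, so its behaviour near that bound was not tested. The number of arrays limits the precision. The members, gene lists and alternatives were chosen with earlier results of these data known. Named were genes with a gap moved by at least 1, probe sets near the bounds, the end genes, a set of chosen genes, and up to 10 members without a single symbol; other names were chosen after their values were seen. Same-numbered arrays shared only a number: their deviations correlated at 0.04, -0.07 and -0.10.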

Additional observations from a re-analysis of the deposited data

How the results depend on the processing

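The count of members whose gap to their gene moved by at least 1 was 8 after quantile normalization, the same 8; median centring cannot change a gap within an array. It was 6 with the mean of the other probe sets, 9 against brighter probe sets alone, 5 on the brighter probe sets (the dimmest tercile left out), which removes dim members, and 19 with a bound of 0.58. Leaving out 1 array gave 8 to 12, with at least 7 of the 8 kept each time. The 7 large differences became 14 with a bound of 0.58, and 6 to 9 under the other alternatives run. Shares over all tested probe sets were not counted at these other settings, so nothing is read from the changed counts of members. The median gap shift of the 8 was 1.25 to 1.45 without 1 array, lowest without knockout 2. Each of the 8 kept its direction in all 64 comparisons. Where 1 array was left out this was fixed in advance, since the 8 were picked for gaps without overlap between the groups. The segment median ran from -0.004 to 0.038.

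Over the whole table, the 3 probe sets past an adjusted p of 0.05 became 7 with array weights, 6 after quantile normalization, 7 after median centring, 19 on the brighter probe sets, 21 with trend and robust moderation, 0 with the replicate number as a block and 0 to 4 without 1 array; the cause was not tested. With the replicate block 0 members passed and 8 had a large difference, again without a share over all probe sets. 10406776 of *Cert1* passed after median centring, after quantile normalization, on the brighter probe sets, with array weights, trend and robust moderation, and without knockout 2.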
